A study of Mus musculus with 146 samples.

Results

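The cells described here were germ cells of the newborn mouse ovary that had not yet turned on the zona pellucida gene Zp3, split by whether they carried RNA of Trp63. They were picked by a rule on measured levels. A library entered when Ddx4, the germ cell RNA helicase also called VASA, was at 1 TPM or more and Zp3 was below 10 TPM. TPM is a level per transcript length, in which all genes of a library share the same total. Cells with Trp63 at 10 TPM or more were called Trp63-positive and cells with Trp63 below 1 TPM were called Trp63-negative. Of 146 libraries in the series, 98 met the rule for Ddx4 and Zp3. Among these, 42 libraries were Trp63-positive and 53 were Trp63-negative. Since 7 pairs of libraries held almost the same values and each pair was counted as 1 cell, the comparison had 39 positive and 49 negative cells, with 3 cells between the limits, of 91 cells before zona. Here before zona means Zp3 below 10 TPM alone, and some of these cells had RNA of Zp2, another zona gene.

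The study followed single germ cells while nests of connected germ cells break up and primordial follicles form. Every library came from 1 cell of C57/BL6J ovary at an age of 0.5 days (D0.5), from newborn females of 1 litter, with no treatment or mutation named. Both groups of cells shared all of these labels, and the rule that split them used measured RNA alone. The groups were not spread evenly over the library numbers. No batch is named in the labels, so a batch that ran along the numbers cannot be told apart from the split. Polyadenylated RNA of each cell was amplified by Smart-seq2, a method that reads along the whole transcript, with spike-in RNA added. The cells were picked by size by hand from digested ovaries, and the labels do not say which ovary a cell came from. All cells were therefore treated as 1 sample, and no p-value or standard error was computed from cells.

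Trp63 encodes p63, a transcription factor of the p53 family. In the mouse ovary the full-length TA form of p63 accumulates in oocytes that rest in meiotic prophase, where it is held in an inactive form. When DNA breaks persist, the checkpoint kinase CHEK2 and casein kinase 1 activate it, and it turns on the death genes Bbc3 (PUMA) and Pmaip1 (NOXA). In skin and other layered epithelia a shorter form maintains the basal cells.

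The libraries repeated in pairs had correlations of log2(TPM + 1) between 0.984 and 0.993, and no other 2 libraries went above 0.824. Their counts differed by 1.598 to 4.32 times what sampling alone gives, against at least 308 times for other positive libraries. Estimated reads on genes had a median of 9340198 in positive cells and 9377063 in negative cells, with lowest values of 5267756 and 6020166. Coding genes with a read had medians of 9253 and 8740, and the mitochondrial share of reads had medians of 5.94% and 5.53%. Spike-in RNA took a median of 11119 TPM in positive and 13821 TPM in negative cells. The part of these differences in the results below was not tested. Of 10 germ cell markers, 8 had a median of at least 10 TPM in both groups, among them Dazl, Mael and Sycp3. All 13 pregranulosa markers, including Foxl2, had medians below 1 TPM in both groups, and Foxl2 reached 1 TPM in 1 positive and 3 negative cells. The paper screened the amplified cells by PCR and left out those positive for Foxl2, so low Foxl2 was selected for. The summed level of pregranulosa markers ranged from 0.0318 to 82.1 TPM in positive and from 0 to 66.6 TPM in negative cells. Summed markers of pregranulosa, stroma, endothelium and blood reached 1000 TPM in 7 positive and 9 negative cells, mostly through globin RNA, and ranged from 11.4 to 48672 TPM and from 13.6 to 325041 TPM.

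Trp63 (ENSMUSG00000022510.14, chr16:25683763-25892102, plus strand, GRCm38) chose the groups, so its levels are given as a description. In the 39 positive cells Trp63 was at a lowest of 11.4, a median of 40.1 and a highest of 151 TPM, from 151 to 6405 estimated reads. In the 49 negative cells it was at 0, 0 and 0.761 TPM, and 25 of them had no Trp63 read. The 3 cells between the limits had 6.03, 6.64 and 9.35 TPM. Few cells therefore lay near either limit, since the values next to 10 TPM were 9.35 and 11.4 TPM and those next to 1 TPM were 0.761 and 6.03 TPM. Around the Zp3 limit the nearest cells had 4.14 and 10.3 TPM, and around the Ddx4 limit 0 and 7.49 TPM.

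Of the 91 cells before zona, 42.9% were Trp63-positive (exact 95% interval 32.5 to 53.7, counting error only). Among 47 zona-expressing cells, those with Zp3 at 10 TPM or more, 41 had at least 10 TPM of Trp63, which is 87.2% (74.3 to 95.2), and 3 were below 1 TPM. Over all 47 the median was 41.1 TPM. It is not set against the positive cells before zona, which were chosen at 10 TPM or more. The deposited gene table does not separate the TA and shorter forms. The mean transcript length that Salmon used for Trp63 ranged from 223 to 4593 bases over the 42 positive libraries, and was under 1000 in 9, while the 8 annotated transcripts span 1729 to 5366 bases.

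**Figure D1:**
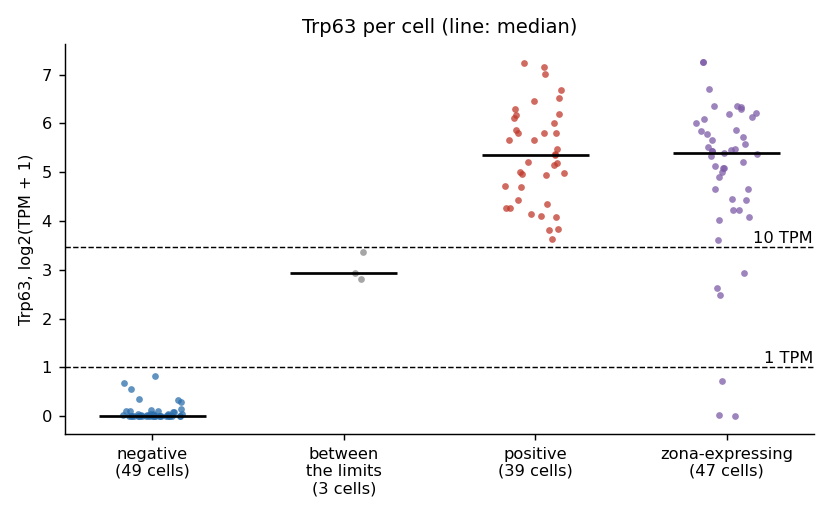
Trp63 in log2(TPM + 1) for each cell of the negative (49), between (3), positive (39) and zona-expressing (47) cells, with medians as lines and the limits of 1 and 10 TPM dashed. The positive cells before zona run from 11.4 to 151 TPM, with the lower end set by the limit.

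Trp63-positive cells had more RNA of genes of the growing oocyte and less RNA of early meiotic genes than Trp63-negative cells. The log2 ratio of mean TPM, with 1 TPM added to both means, was used, and a gene was counted when it passed 2-fold. Of 12225 coding genes whose mean reached 1 TPM in a group, 1053 were past 2-fold higher in positive cells (8.61%) and 938 were lower (7.67%), with a median log2 ratio of 0.00. Trp63 itself chose the groups, so these shares describe the split, and nothing is read from them. A value in parentheses after the levels of a gene is its log2 ratio, positive over negative cells. When the mean of log2(TPM + 1) replaced the log2 of the mean, 810 genes were higher (6.63%) and 244 lower (2.00%), so the higher share of the genes past 2-fold was 76.9% in place of 52.9%. Trp63 limits of 20 and 1 TPM gave 1126 higher and 1132 lower genes, a higher share of 49.9%. TPM per spike-in gave 1496 and 893, a share of 62.6%.

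The 12 genes highest in positive cells, among those with at least 10 TPM and seen in at least 50% of the positive cells, were Abi3bp, Sox15, Tuba1c, Mtus2, Hexdc, Sp140, Pdzk1, Ldhb, Ptpn18, Mcc, Tmem151a and Nos1, with log2 ratios from 3.55 down to 2.48. Sox15, which encodes an HMG box transcription factor, was at 0, 20.1 and 224 TPM (lowest, median and highest) in positive cells. In negative cells it was at 0, 0 and 32.5 TPM, and the log2 ratio was 3.53. Sox15 was thus silent in most negative cells, with 7 of 49 at 1 TPM or more against 28 of 39. Tuba1c, an alpha-tubulin, was at 0, 53.7 and 1561 TPM in positive cells and at 0, 0.260 and 178 TPM in negative cells. Pdzk1, which encodes a scaffold protein for membrane transporters, was at 0, 85.99 and 312 TPM against 0, 0.0341 and 162 TPM. Nos1, the neuronal nitric oxide synthase, was at 0.0209, 6.07 and 398 TPM against 0, 0.0293 and 123.8 TPM. In each of these genes the groups overlapped, because some positive cells had almost no RNA of the gene and a few negative cells had much of it.

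The rule asked for these genes in at least 50% of positive cells, so the shares that follow are a description. A median of 70.5% of positive and 25.5% of negative cells had at least 1 TPM, with ranges over the genes of 58.97 to 94.9% and 10.2 to 65.3%. Hexdc and Ptpn18, a hexosaminidase and a tyrosine phosphatase, were at 1 TPM or more in 74.4% and 76.9% of positive and in 61.2% and 65.3% of negative cells, with means of 87.4 and 9.13 TPM for Hexdc and 170.2 and 25.4 TPM for Ptpn18. Counted per cell at 10 TPM or more, a positive cell had a median of 7 of the 12 genes and a negative cell a median of 2. At least 8 of the genes were on in 18 positive and 3 negative cells, and at most 3 were on in 7 positive and 38 negative cells.

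**Figure D2:**
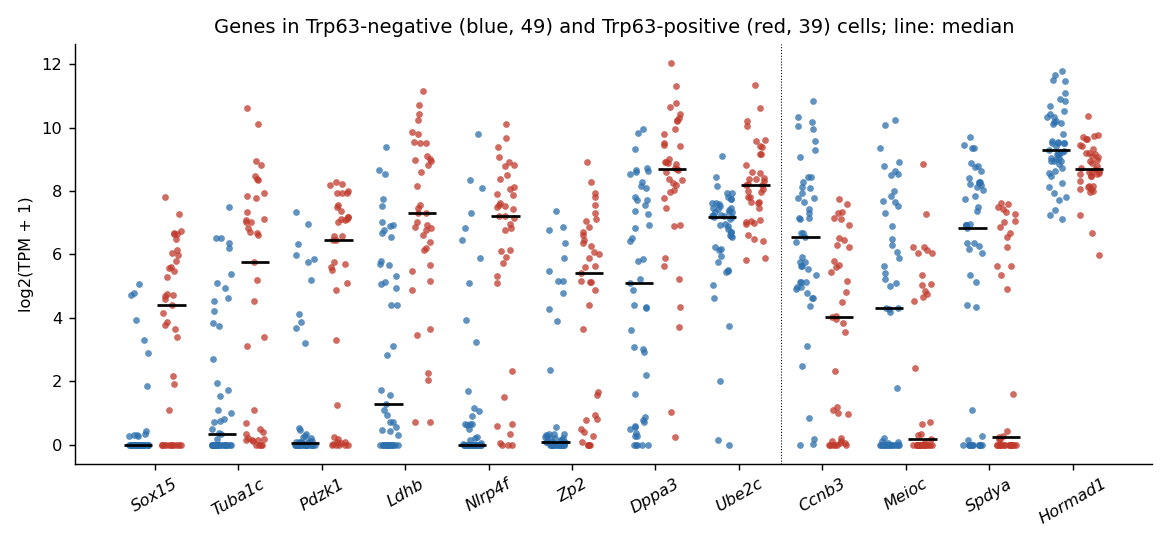
Levels in log2(TPM + 1) of 8 genes higher and 4 genes lower in the 39 Trp63-positive (red) than in the 49 Trp63-negative (blue) cells, 1 point per cell, with medians as lines. Sox15, Pdzk1, Nlrp4f and Zp2 had medians near 0 in negative cells, while Ube2c and Hormad1 were present in nearly all cells of both groups.

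The genes whose level ordered the 91 cells most like Trp63, by Spearman's rho among 7387 genes whose mean reached 10 TPM, were Nlrp4f (0.65), Ldhb (0.62), Olah (0.61), Sox15 (0.60), Pfdn4 (0.58), Zbed3 (0.58), Tmem14c (0.58), Gja4 (0.57), Tcl1 (0.57) and Pdzk1 (0.57). These values describe cells of 1 litter and share the depth and composition of each library. Within the 39 positive cells rho with Trp63 was lower for all 10, from 0.19 for Sox15 to 0.49 for Pfdn4. The 10 were picked for their rho over the 91 cells, and the positive cells were cut at 10 TPM of Trp63. Both largely fixed a lower value, so nothing is read from it. Nlrp4f, an oocyte member of the NLRP family, was at 0, 148 and 1097 TPM in positive and at 0, 0 and 882 TPM in negative cells. Ldhb, the lactate dehydrogenase subunit that favours pyruvate, was at 0.642, 156 and 2287 TPM against 0, 1.41 and 669.9 TPM. Gja4, the connexin of the gap junctions between oocyte and granulosa cells, was at 0, 45.02 and 194 TPM against 0, 0 and 219.5 TPM. In the median negative cell these 3 genes were at 1.41 TPM or less. Tcl1, a coactivator of AKT kinases, had a mean of 128.03 TPM against 24.2 TPM.

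The genes ordered most against Trp63 were Yod1 (-0.54), Olfr46 (-0.52), Eif4a2 (-0.50), Caps2 (-0.46) and Pign (-0.45). Eif4a2, an RNA helicase of translation initiation, was at 0, 506 and 1461 TPM in positive and at 15.7, 960.5 and 3018 TPM in negative cells. Yod1, a deubiquitinase, was at 0, 7.46 and 80.5 TPM against 0.170, 33.6 and 162 TPM. Yod1 was at 1 TPM or more in 26 of 39 positive and 46 of 49 negative cells. Caps2 had a log2 ratio of -1.05, and -0.96 without cell S106.

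The promoters of Nlrp4f, Ldhb and Olah, the 3 genes most like Trp63, and of Ccnb3, the first of the lower genes, are shown because the transcription factors SOHLH1 and FIGLA of early oocytes bind E-boxes. Each sequence is the 250 bases before the start of transcription from RefSeq on GRCm38.p6, written along the transcript, with E-boxes (CANNTG, which reads the same on both strands) in capitals. Nlrp4f lies at chr13:65205717-65205966, Ldhb at chr6:142507958-142508207, Olah at chr2:3366570-3366819 and Ccnb3 at chrX:7041620-7041869, all on the minus strand.
Nlrp4f: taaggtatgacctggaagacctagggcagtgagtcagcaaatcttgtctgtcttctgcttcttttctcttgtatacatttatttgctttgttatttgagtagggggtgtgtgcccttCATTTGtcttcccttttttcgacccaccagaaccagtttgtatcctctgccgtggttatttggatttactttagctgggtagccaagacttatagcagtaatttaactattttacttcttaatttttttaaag
Ldhb: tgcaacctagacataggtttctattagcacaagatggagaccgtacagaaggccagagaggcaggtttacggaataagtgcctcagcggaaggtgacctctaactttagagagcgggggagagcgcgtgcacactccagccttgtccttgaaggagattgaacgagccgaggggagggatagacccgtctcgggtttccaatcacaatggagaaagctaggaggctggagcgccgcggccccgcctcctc
Olah: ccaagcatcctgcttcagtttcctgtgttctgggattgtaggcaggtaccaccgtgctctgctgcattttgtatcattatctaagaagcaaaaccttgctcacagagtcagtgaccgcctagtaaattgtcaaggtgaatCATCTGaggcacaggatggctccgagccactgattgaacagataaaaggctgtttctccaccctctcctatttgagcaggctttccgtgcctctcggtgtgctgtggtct
Ccnb3: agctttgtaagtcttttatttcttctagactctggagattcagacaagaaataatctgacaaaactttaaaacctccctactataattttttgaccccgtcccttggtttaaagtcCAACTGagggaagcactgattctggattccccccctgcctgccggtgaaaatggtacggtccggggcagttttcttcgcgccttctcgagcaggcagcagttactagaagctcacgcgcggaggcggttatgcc
The E-boxes were CATTTG at -133 in Nlrp4f, CATCTG at -110 in Olah and CAACTG at -134 in Ccnb3, counted from the start of transcription. Ldhb had no match in this window. Of 27025 promoters of the same length, 66.04% had an E-box, against 7 of 10 with an entry among the 12 higher genes, 3 of 10 among the 12 lower genes and 16 of 19 among genes of oocyte growth. The NOBOX element TAATTG, searched on both strands, was in 7.34% of all promoters and in 1 of the 10 higher genes. Half-sites of p53, searched on both strands, were in 7.18% of all promoters and in 6 of 23 p53 family target genes, which is 26.1%. They were in 1 of 10 of the higher and 1 of 10 of the lower genes. Among the 10 genes most like Trp63 there were 0, and among genes of oocyte growth 1 of 19.

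All gene lists were written with earlier results of these data known, so their counts are a description. Genes of oocyte growth and maternal supply were the list with the most members higher in positive cells. Of 25 members whose mean reached 1 TPM in a group, 17 were past 2-fold higher and 1 lower, against 8.61% and 7.67% of all genes, with a median log2 ratio of 1.98, while 4 of the 29 listed genes were below that level. Of the 17, Padi6, Oas1e, Nlrp14 and Oas1d had negative means below 1 TPM, so they were described through the positive cells alone. Oas1d (2.20) rested on cell S113, and was at 0.0073 without it. Ratios of genes that are near 0 in 1 group depend on the added 1 TPM. The highest ratio was that of Padi6, a protein of the cytoplasmic lattices of the egg, with a mean of 95.5 TPM in positive and 0.430 TPM in negative cells (6.08). H1foo, the oocyte linker histone, had means of 35.7 and 1.22 TPM (4.05), Oas1e 9.39 and 0.0539 TPM (3.30), and Nlrp14 6.59 and 0.0666 TPM (2.83). As means of logs Oas1e was at 0.88 and Nlrp14 at 0.73, and 12 of the 17 stayed past 2-fold. Padi6, H1foo, Oas1e and Nlrp14 were each carried by few cells. Padi6 was at 10 TPM or more in 7 positive and 0 negative cells, H1foo in 12 positive and 1 negative, and Oas1e in 6 and 0. The 7 cells with Padi6 all had Nlrp4f and Ldhb, with medians of 361 and 555 TPM against 110.5 and 114.06 TPM in the other 32 positive cells. Their median Trp63 was 43.8 TPM, against 35.6 TPM in the others.

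Other members of this list were on in more cells. Zp2, a zona pellucida protein that the rule did not use, was at 0, 41.2 and 478 TPM in positive cells and at 0, 0.0686 and 165 TPM in negative cells. At 1 TPM or more it was in 28 of 39 positive and 12 of 49 negative cells, so many cells without Zp3 were not without zona RNA. Wee2, an oocyte kinase that keeps CDK1 inactive, had means of 18.8 and 2.54 TPM (2.49). Pabpc1l, a poly(A)-binding protein of oocytes, was the member past 2-fold lower, described through the negative cells alone, with 0.0150 and 2.55 TPM (-1.81) and 0 positive against 3 negative cells at 1 TPM or more, and was at -0.32 when estimated counts were scaled to a fixed total.

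Early meiotic genes were the list with the most members lower in positive cells. This list too was written with earlier results of these data known, so its count is a description. Of 17 members, 11 were past 2-fold lower and 0 higher, against 7.67% and 8.61% of all genes, with a median log2 ratio of -1.23. Ccnb3, a cyclin of meiosis, was at 0, 15.3 and 214 TPM in positive cells and at 0, 91.7 and 1833 TPM in negative cells (-2.43). Meioc, a cofactor that keeps cells in meiotic prophase, was at 0, 0.125 and 464 TPM against 0, 18.9 and 1219 TPM (-2.19). For both genes the negative cells reached levels that positive cells did not. Mtl5 had means of 6.28 and 56.7 TPM (-2.99), Magea10 2.32 and 18.1 TPM (-2.53), Rhox9 6.19 and 38.6 TPM (-2.46) and Rhox6 3.80 and 20.4 TPM (-2.16). Each of these had a median below 1 TPM in both groups. At 1 TPM or more Mtl5 was in 12 positive and 23 negative cells, Magea10 in 3 and 12, Rhox9 in 9 and 21 and Rhox6 in 7 and 21. Mtl5 was at -1.07 with Sohlh1 at 50 TPM or more. Dazl, an RNA-binding protein of germ cells in the same list, was at a similar level in both, with means of 598 and 586 TPM.

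The 12 lower genes by the same rule were Ccnb3, Meioc, Cntd1, Tcea2, Qsox2, Spdya, Slc25a42, H2-D1, Arrdc3, Me1, Mdk and Zc3h8, with log2 ratios from -2.43 to -1.68. Slc25a42 (-1.85) was at -0.95 as a mean of logs. Spdya, an activator of CDK2 at meiotic telomeres, was at 0, 0.182 and 196 TPM in positive and at 0, 114.1 and 834 TPM in negative cells. Cntd1, a cyclin-like protein of crossover maturation, was at 0, 0.348 and 79.7 TPM against 0, 27.2 and 282 TPM. H2-D1, a class I histocompatibility antigen, was at 0, 0.0686 and 107.1 TPM against 0, 34.2 and 357 TPM. At least 1 TPM was found in a median of 42.3% of positive and 66.3% of negative cells over the 12 genes, of which the rule had asked for at least 50% in negative cells.

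Genes of meiotic breaks and crossovers had a median log2 ratio of -0.53, and 6 of 26 were past 2-fold lower and 0 higher, against 7.67% and 8.61% of all genes. They were Cntd1, the strand exchange protein Dmc1 (-1.57), the crossover protein Msh5 (-1.50), the break-forming Spo11 (-1.44), Meiob (-1.10) and Mcmdc2 (-1.07). Spo11 was at 0, 17.2 and 72.8 TPM in positive cells against 0, 42.7 and 171 TPM in negative cells. Meiob and Mcmdc2, both needed to repair the breaks, were at -0.97 and -0.94 without cell S026. With Sohlh1 at 50 TPM or more, 2 of the 26 were past 2-fold lower, near the 7.51% of all genes there. The median there was -0.31, with Dmc1 at -0.86, Meiob at -0.84 and Mcmdc2 at -0.95. As means of logs over all cells, 7 of the 26 were past 2-fold lower and 1 higher, Mlh3. All genes had shares of 2.00% and 6.63% by that measure, and the list's median was -0.45. Of 15 genes of the chromosome axis and synaptonemal complex, 2 were past 2-fold lower and 0 higher, against the same shares of all genes, with a median of -0.43. With Sohlh1 on 1 of 14 was lower, near the share of all genes. Rec8, a meiotic cohesin, was at 1 TPM or more in 0 positive and 5 negative cells (-1.50). It was described through the negative cells alone, so its direction was fixed, and it was at -0.38 as a mean of logs and -0.87 with Sohlh1 on. Hormad2 had means of 30.5 and 77.6 TPM (-1.32). Sycp3 and Sycp1, which build the synaptonemal complex, had log2 ratios of -0.02 and -0.19. Both were thus close between the groups in TPM, and Sycp1 was at -0.50 with estimated counts scaled to a fixed total. Tex12 and Six6os1 of the same complex were at -0.61 and -0.69. Of the 15 genes, 14 had a ratio below 0 and 1 above. Hormad1, an axis protein removed as chromosomes pair, had means of 477 and 946 TPM (-0.98).

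**Figure D3:**
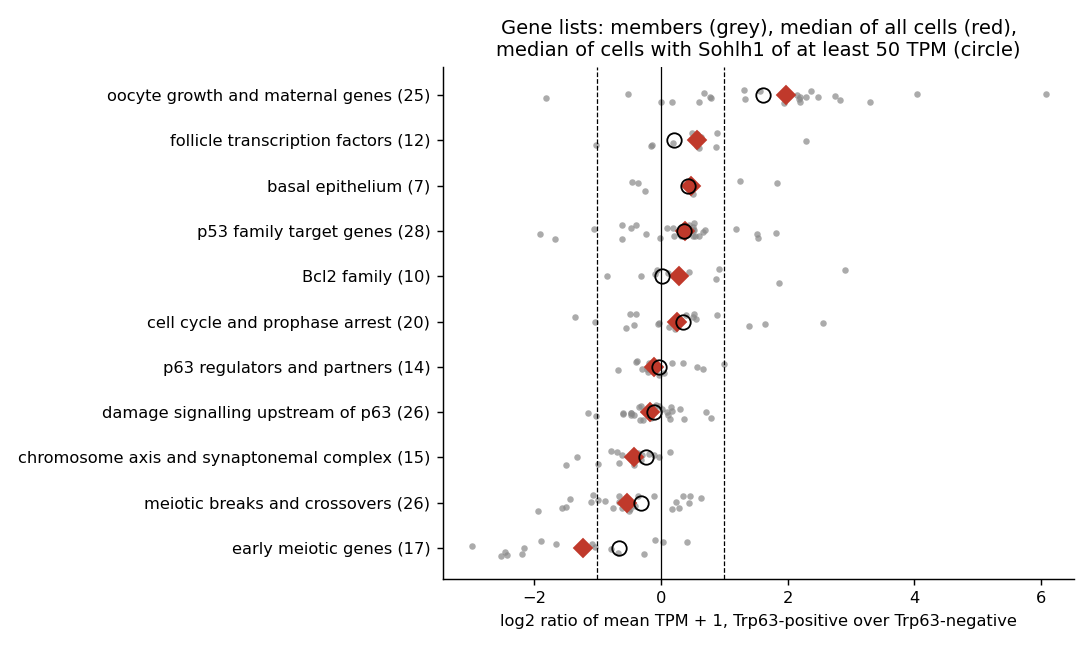
Log2 ratio of mean TPM + 1, Trp63-positive over Trp63-negative cells, for each described member (grey) of 11 gene lists, with the list's median over all cells (red) and over cells with Sohlh1 of at least 50 TPM (circle). Oocyte growth genes had the highest median, 1.98, and early meiotic genes the lowest, -1.23, and both circles lie nearer to 0, at 1.61 and -0.66.

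Of 12 follicle transcription factors, 1 was past 2-fold higher and 1 lower, against 8.61% and 7.67% of all genes, with a median log2 ratio of 0.57. This count turned on how cells were averaged. As means of logs 6 of the 12 were past 2-fold higher and 1 lower, against 6.63% and 2.00% of all genes, with a median of 1.05. The 6 were Sohlh1 (1.60), Figla (1.24), Nobox (1.77), Lhx8 (1.40), Stat3 (1.37) and Id2 (1.32). Sohlh1 was at 0, 372 and 968 TPM in positive and at 0, 219 and 853 TPM in negative cells (0.57), and Figla, which switches on zona genes, at 261, 1649 and 3867 TPM against 1.87, 1056 and 3849 TPM (0.58). Nobox, another factor needed for oocyte survival, was at 0, 387 and 711 TPM against 0, 128.5 and 771 TPM (0.89). The highest levels were alike in both groups, and the cells with almost no Figla were negative. Id1, the most abundant of the 12, had means of 2885 and 3184 TPM (-0.14). It was at 0.43 as a mean of logs and -0.51 with Sohlh1 on. Tbpl2, the oocyte TATA-binding protein, had means of 8.67 and 0.974 TPM (2.29) and was at 1 TPM or more in 6 positive cells and 1 negative cell. With a negative mean below 1 TPM it was described through the positive cells alone, and was at 0.66 as a mean of logs and 1.69 without cell S113. Taf4b, a germ cell subunit of TFIID, had means of 20.4 and 42.5 TPM (-1.02). It was at -0.94 without cell S107, -0.76 per spike-in and -0.65 with Sohlh1 on, where 0 of the 12 were past 2-fold lower.

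The share of Trp63-positive cells was higher at higher Sohlh1. It was 4 of 19 cells (21.1%, exact interval 6.05 to 45.6) below 50 TPM of Sohlh1, 6 of 15 from 50 to 200 TPM, 13 of 32 from 200 to 400 TPM and 16 of 25 (64%, 42.5 to 82.03) at 400 TPM or more. With Hormad1 the order was the opposite, with 19 of 32 cells below 400 TPM, 15 of 37 from 400 to 800 TPM and 5 of 22 (22.7%, 7.82 to 45.4) above. Over the 91 cells rho with Trp63 was 0.31 for Sohlh1, 0.42 for Nobox, 0.41 for Lhx8, 0.56 for Zp2 and -0.32 for Hormad1, and within the 39 positive cells 0.19, 0.30, 0.48, 0.14 and -0.15.

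Both kinds of cell were found at each level of Sohlh1. The 4 positive cells with Sohlh1 below 50 TPM had 15.8 to 34.5 TPM of Trp63, Figla between 261 and 3867 TPM and 0 to 11 of the 12 higher genes. The 9 negative cells with Sohlh1 at 400 TPM or more had Figla between 887 and 3849 TPM, and Trp63 of at most 0.606 TPM. Zp2 was at 10 TPM or more in 1 of these 9 negative cells and in 12 of the 16 positive cells with as much Sohlh1. Nlrp4f was at 10 TPM or more in 3 of the 9 and 14 of the 16.

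**Figure D4:**
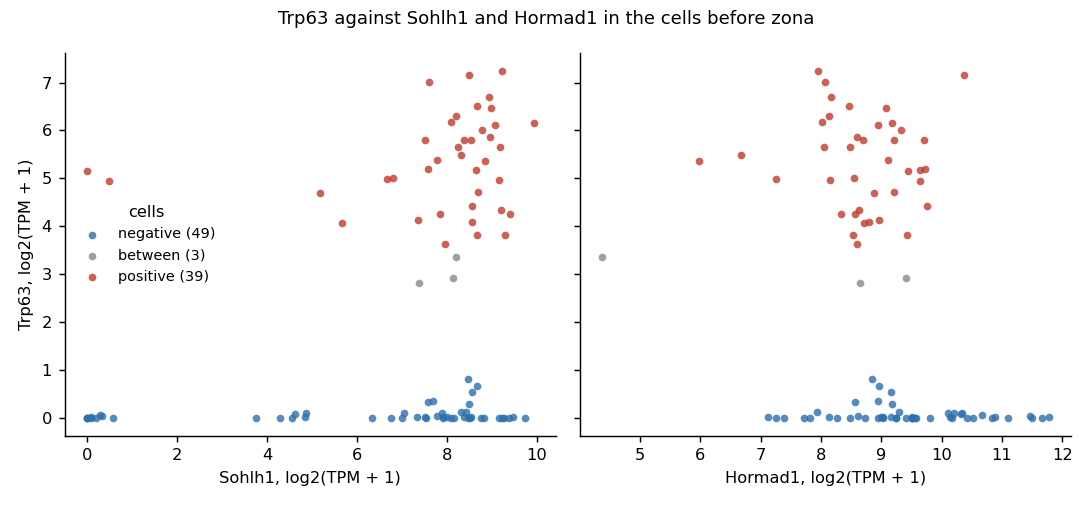
Trp63 against Sohlh1 (left) and Hormad1 (right) in the 91 cells before zona, all in log2(TPM + 1), with negative cells in blue, positive cells in red and the 3 cells between the limits in grey. Negative cells run from 0 to 853 TPM of Sohlh1 and positive cells from 0 to 968 TPM, and the cells with the most Hormad1 are negative.

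Within the cells that had Sohlh1 at 50 TPM or more, 35 positive and 34 negative, 1256 of 12061 genes were past 2-fold higher (10.4%) and 906 lower (7.51%), with a median of 0.04. The 12 higher genes were all past 2-fold there, and 11 of the 12 lower genes were, with Spdya at -0.75 the exception. Since these genes were chosen for their ratios in a set that holds these cells, the choice largely fixed this. Oocyte growth genes had a median of 1.61 with 17 of 25 past 2-fold higher, and early meiotic genes a median of -0.66 with 5 of 17 past 2-fold lower. Magea10 went from -2.53 to -0.12, and Msh5 from -1.50 to -0.29. The difference in early meiotic genes was thus smaller among cells with Sohlh1, and that in oocyte growth genes nearly as large.

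The 12 higher and 12 lower genes were chosen for extreme ratios of positive to negative cells, which in part fixes where another group lies. No share over all genes stands beside the counts that follow, so they are a description. The zona-expressing cells, which the comparison did not use, had higher means than the negative cells for 12 of the 12 higher genes, and at or above the positive mean for 11, Mcc being below it with 9.62 against 15.6 TPM. The means of Ldhb were 58.4 TPM in negative, 398 TPM in positive and 1489 TPM in zona-expressing cells. Those of Padi6 were 0.430, 95.5 and 680.0 TPM. For the 12 lower genes the zona-expressing cells were below the negative mean in 12 and below the positive mean in 10. Ccnb3 had means of 254, 46.3 and 4.86 TPM in the same order. The positive mean lay between the negative and the zona-expressing means for 21 of the 24 genes, a count that the choice of genes favours. The exceptions were Mcc, Slc25a42 (13.7, 3.08 and 3.49 TPM) and Zc3h8 (35.1, 10.2 and 14.5 TPM).

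Of 26 genes of damage signalling upstream of p63, 0 were past 2-fold higher and 2 lower, against 8.61% and 7.67% of all genes, with a median log2 ratio of -0.18. Chek2 was at 0, 12.9 and 132.4 TPM in positive and at 0, 3.50 and 120.1 TPM in negative cells (0.71), and was past 2-fold with estimated counts scaled to a fixed total (1.21) and when logs were averaged over cells (1.12). It was at 0.30 with Sohlh1 at 50 TPM or more. Atm, the kinase that senses breaks, had means of 19.3 and 18.03 TPM (0.10). The casein kinase 1 genes Csnk1a1 and Csnk1d had log2 ratios of 0.02 and -0.03, and Csnk1e 0.36. Chek1, the related kinase, was at -0.07 and Atr at -0.35. The 2 members past 2-fold were the kinase Abl1, with means of 8.52 and 20.1 TPM (-1.15), and Hus1b, part of a clamp loaded at damage, with 27.7 and 57.4 TPM (-1.02). Abl1 was at -0.42 when estimated counts were scaled to a fixed total in place of TPM, and Hus1b at -0.91 without cell S035.

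Of 14 regulators and partners of p63, 1 was past 2-fold higher, near the 8.61% of all genes. This was the deubiquitinase Usp7, at 1.84, 60.2 and 368 TPM in positive and at 0, 23.8 and 193 TPM in negative cells (1.00). It was at 0.85 without cell S013 and at 0.56 with estimated counts scaled to a fixed total. Mdm2, the ubiquitin ligase of p53, had means of 87.7 and 140.2 TPM (-0.67), and its relative Mdm4 88.6 and 59.6 TPM (0.56). The list's median was -0.11, and 0.09 with estimated counts scaled to a fixed total, where the median of all genes was 0.02. The other members of the family were p53 and p73. Trp53 was at 0, 27.3 and 77.3 TPM against 0, 4.25 and 222 TPM, with 27 cells of each group at 1 TPM or more and a log2 ratio of 0.29. That ratio was 1.03 as a mean of logs, 0.63 per spike-in and -0.18 with Sohlh1 on. Trp73 was at 0 TPM in all positive cells and above 1 TPM in 1 negative cell, at 11.9 TPM.

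**Figure D5:**
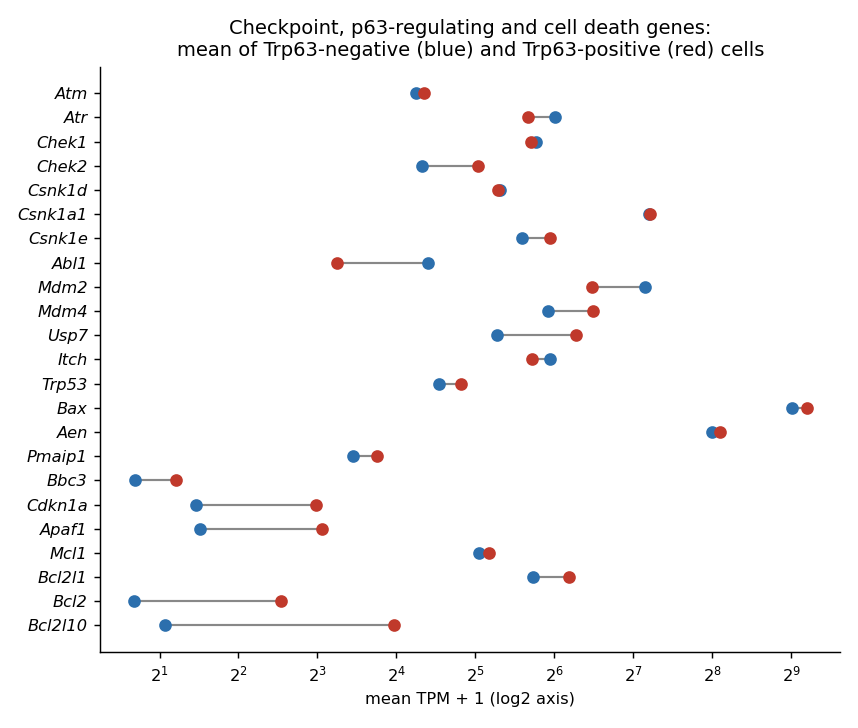
Mean TPM + 1 on a log2 axis of 23 checkpoint, p63-regulating and cell death genes in the 49 Trp63-negative (blue) and 39 Trp63-positive (red) cells. Most pairs of points lie close, such as Csnk1a1 at 146 and 148 TPM, and the wide gaps are at low levels, such as Bcl2l10 at 1.09 and 14.6 TPM.

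Of 28 described target genes of the p53 family, 4 were past 2-fold higher and 3 lower, with a median log2 ratio of 0.38, where all genes had shares of 8.61% and 7.67% and a median of 0.00. Bbc3 and Pmaip1 were not among them. Bbc3 was at 1 TPM or more in 1 positive and 2 negative cells, and Pmaip1 in 13 of each with means of 12.5 and 9.90 TPM (0.31, and -0.03 without cell S043). Bax, the pore-forming effector, was at 32.1, 562 and 1386 TPM in positive and at 156, 472 and 1398 TPM in negative cells (0.19). Rps27l, the most abundant member, had means of 2136 and 2145 TPM. The members past 2-fold were found in few cells, and as means of logs 0 of these 7 were past 2-fold. By that measure 2 other targets were past 2-fold higher, Xpc (1.39) and Tigar (1.33), and 0 lower, against 6.63% and 2.00% of all genes. Cdkn1a, an inhibitor of cyclin-dependent kinases, was at 1 TPM or more in 8 positive and 6 negative cells (1.51), and was at 0.93 when the limit for negative cells was raised to 10 TPM. Apaf1, the core of the apoptosome, was in 11 and 9 (1.54), and was at 0.58 when the limit for positive cells was raised to 20 TPM. Eda2r (1.82) rested on cell S129, which had 66.8 TPM, and was at 0.88 without it. Casp8 (1.18) was above 1 TPM in cell S037 alone, and was at -0.0022 without it. Sesn1, Plk2 and Shisa5 were lower, at -1.91, -1.67 and -1.06. With Sohlh1 on Plk2 was at -0.57 and Shisa5 at -0.16. There 4 of 27 targets were past 2-fold higher and 1 lower, against 10.4% and 7.51% of all genes. As means of logs Plk2 was at -0.43 and Sesn1 at -0.95, and Shisa5 was at -0.75 without cell S136. Eda2r and Casp8 were described through the positive cells alone and Plk2 through the negative cells alone.

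Among 10 members of the Bcl2 family, 2 were past 2-fold higher and 0 lower, against 8.61% and 7.67% of all genes. Bcl2l10, a member found in oocytes, had means of 14.6 and 1.09 TPM (2.90) and was at 1 TPM or more in 9 positive and 2 negative cells. Bcl2, which protects from cell death, had means of 4.81 and 0.599 TPM (1.86), of which cell S013 gave 60.7% of the positive sum, and was at 0.88 without it. It was described through the positive cells alone, and was at 0.54 as a mean of logs. The abundant protective members Bcl2l1 and Mcl1 had log2 ratios of 0.45 and 0.12. The list's median was 0.29, and ran from 0.05 without cell S065 to 0.41 without cell S017. With Sohlh1 on it was 0.02, with 2 members higher and 1 lower, Bmf, which went from 0.87 to -1.50. Bmf had means of 0.0512 and 1.98 TPM there, so it was described through the negative cells alone. Among all cells before zona it was at 1 TPM or more in 3 positive and 4 negative cells.

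Of 20 genes of the cell cycle and prophase arrest, 3 were past 2-fold higher and 2 lower, against 8.61% and 7.67% of all genes, with a median of 0.25 that was 0.12 without cell S124. Ube2c, the ubiquitin-conjugating enzyme of the anaphase-promoting complex, was at 55.1, 293 and 2601 TPM in positive and at 0, 142.8 and 547 TPM in negative cells (1.64). Aurkb (2.56) was at 1 TPM or more in 7 positive cells and 1 negative cell, and was at 0.79 when the limit for negative cells was raised to 10 TPM. Gpr3 (1.39), the receptor that keeps oocytes arrested through cyclic AMP, was in 16 and 5. Cdc20, an activator of the same complex, had means of 72.4 and 150.5 TPM (-1.04, and -0.26 with Sohlh1 on), and was at -0.89 without cell S026. Cdc25c (-1.36) was at -0.69 without cell S058. Aurkb was described through the positive cells alone and Cdc25c through the negative cells alone. As means of logs Aurkb was at 0.79, Cdc25c at -0.21 and Cdc20 at -0.87.

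Of 9 genes listed as lying beside Trp63, 8 are on chromosome 16 and Tprgl is on chromosome 4. Of the 8, 2 had a mean that reached 1 TPM in a group. These were P3h2, with means of 2.15 and 2.16 TPM (-0.0039), and Lpp, with means of 4.86 and 3.38 TPM (0.42). Of 12 genes of basal epithelium, 5 had means below 1 TPM in both groups, Krt5 and Krt14 among them, and 2 of the other 7 were past 2-fold higher, against 8.61% of all genes. Both were described through the positive cells alone. Dsc3 (1.84) was above 1 TPM in cell S117 alone and was at 0.0022 without it, and Krt15 (1.25) was at 0.98 without cell S040. As means of logs they were at 0.17 and 0.54. By that measure 1 of the 7, Itga6, was past 2-fold higher (1.05) and 0 lower, against 6.63% and 2.00% of all genes. Itga6 had means of 24.99 and 17.7 TPM (0.47), and 24 positive and 22 negative cells had 1 TPM or more. Epcam, found in germ cells as well as epithelia, had means of 33.5 and 46.1 TPM (-0.45).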

How the data were processed

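A total of 146 single-cell RNA-seq libraries (Smart-seq2, ERCC spike-ins) were analysed, which came to 139 cells with repeat libraries counted once. The authors quantified reads with Salmon on mm10 and deposited, per gene symbol, TPM, the estimated count of reads without normalization, and a mean transcript length. The annotation release is not given in the sources used here. TPM were used for all levels. Estimated counts gave depth, CPM and the comparison of repeat libraries. Of 52605 symbols, 24296 matched neither GENCODE M21 nor RefSeq, and 19766 were nuclear coding genes.

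Libraries with a Pearson r above 0.9 were counted as 1 cell, with TPM averaged and reads summed. The members, limits and gene lists were chosen with earlier results of these data known. Named genes were Trp63, Ddx4, Zp3, Trp53, Trp73, the 10 most and 5 least like Trp63, and the 12 with the largest ratio each way. These 12 had a mean reaching 10 TPM and at least 1 TPM in 50% of cells. From each list 2 to 6 members were named, those past 2-fold first, then abundant ones, not always the most abundant. Genes outside that rule (Atm, Atr, Chek1, Chek2, Csnk1d, Csnk1e, Bax, Rps27l, Bbc3, Pmaip1, Shisa5, Zp2, Pabpc1l, Dazl, Sohlh1, Nobox, Krt5, Krt14 and the markers) were chosen for known roles after values were seen. Oas1d, Lhx8, Stat3, Id2, Id1, Bmf, Xpc, Tigar, Itga6, Tex12 and Six6os1 were also added after values were seen. Shares of cells have exact (Clopper-Pearson) 95% intervals, which cover counting error only. No gene level has a test, since cells of 1 sample are not replicates. Python 3.11.15, pandas 2.3.3, NumPy 2.4.6, SciPy 1.17.1 and matplotlib 3.10.9 were used, and the calculation was tested on simulated data. Alternatives were other limits, CPM, spike-in scaling, a mean of logs, a pseudocount of 0.1, no low filter, deep cells, cells with Sohlh1 on and leaving out each cell. Counting each library as a cell, and leaving out cells rich in markers of other cell types, were added after seeing the data.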

Additional observations from a re-analysis of the deposited data

Results flagged for a closer look

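1 library stood outside the comparison, because Ddx4 was at 0 TPM. This library, S029, had 357 estimated reads of Trp63 and 90.997 TPM, more than the median positive cell at 40.1 TPM. It had 1408459 reads on genes, the lowest number of all libraries, with Sycp3 at 0.659 TPM and Dazl at 0.221 TPM. The source of its Trp63 reads was not tested.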

How the results depend on the processing

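Of the values for counts of genes and cells, list medians, shares and rho under the alternatives, 226 of 229 were labelled unchanged. Counts had to stay within 1.5 times the reported count and list medians within 1 standard deviation between cells. Shares had to stay within their exact interval and rho within 0.1. These limits are wide, as the median of early meiotic genes counted as unchanged at -0.66 with Sohlh1 on in place of -1.23. With the mean of log2(TPM + 1), 244 genes were lower in place of 938 and the median of oocyte growth genes was 1.08 in place of 1.98. With a limit of 0.1 TPM, the median share of negative cells with a higher gene was 40.8% in place of 25.5%. Division by spike-ins moved the median of all genes to 0.18, a shift against which its ratios are read. Among 73 named genes past 2-fold, 30 were under 2-fold in some alternative. Casp8 reversed, to -0.0091 with Sohlh1 on and leaving out single cells gave -0.0022 (without S037) to 1.21. With CPM the median of p63 regulators was 0.09 in place of -0.11. With no low filter that of basal epithelium was -0.03 in place of 0.47. Leaving out single cells moved the medians of damage signalling to between -0.22 (without S065) and -0.10 (S106), p63 regulators to -0.15 (S065) and -0.04 (S030), p53 targets to 0.22 (S129) and 0.46 (S036), and basal epithelium to 0.13 (S008) and 0.51 (S027). Leaving out each cell in turn gave 995 to 1074 higher and 907 to 1018 lower genes. With each library counted as its own cell, 1055 genes were higher and 927 lower. Without the cells rich in other cell type markers, 1251 genes were higher and 1128 lower over 32 positive and 40 negative cells. With the reads of repeat libraries summed, every positive and negative cell had at least 5000000 reads, so the setting for deep cells left the ratios as they were. Genes near 0 in most cells limit the precision, as a single cell can set their mean. No paired analysis was possible because the labels give 1 group with no shared replicate numbers.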
